A study of Homo sapiens with 8 samples.

Results

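Genes that earlier work on t(8;21) leukaemia named as AML1-ETO targets (UBASH3B, LAT2, PLCG1, RASSF2, CD48, JUP, CAV1, POU4F1 and TRH) were followed through 4 ChIP-seq peak lists. The 9 genes were taken by name from 20163 protein-coding genes, and their peaks were all those with the summit inside the gene or within 20 kb of either end. By this rule they held 96 of 70833 AML1-ETO peaks at 12 h, 140 of 105769 at 48 h, 36 of 28325 ETO2-GLIS2 peaks at 12 h and 33 of 30096 at 48 h. No binding value entered the rule that chose the genes, although they were chosen with earlier results of these data known.

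The cells were U937, a human monoblastic line, carrying a doxycycline-inducible, N-terminally HA-tagged AML1-ETO or ETO2-GLIS2 from a retroviral vector. Each protein was studied in 1 line grown from a single clone, so a difference between proteins cannot be told apart from a difference between clones. Both lines received doxycycline at 5 µg/ml for 12 h or 48 h, and anti-HA beads precipitated the tagged protein. Each protein and time had 1 ChIP library and 1 input library, 8 libraries in all, so no spread between replicates could be measured and no test between conditions was possible. Intervals below are exact 95% Clopper-Pearson intervals on shares of peaks. They cover counting error only, and peaks of one gene are not replicates.

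In AML1-ETO the corepressor ETO is carried to DNA by the Runt domain of RUNX1, a master regulator of blood formation. It arises from the t(8;21) translocation of acute myeloid leukaemia and binds many sites that RUNX1 also uses, together with other haematopoietic factors. ETO2-GLIS2, from paediatric megakaryoblastic leukaemia, joins the related corepressor ETO2 to the zinc fingers of GLIS2. The genes have diverse roles. UBASH3B, LAT2 and PLCG1 act in signalling below immune receptors, RASSF2 binds Ras, and CD48 is a surface ligand of blood cells. JUP and CAV1 are proteins of cell junctions and membrane caveolae, POU4F1 is a neuronal transcription factor and TRH encodes a hypothalamic hormone.

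The sequences at the summits are shown first, because the summit gives the position of a peak in each gene. All are plus-strand reference sequence of GRCh37, the assembly of hg19, written 5′ to 3′. Capitals mark matches on either strand to 6 of the 8 searched patterns, among them TGTGGT or TGCGGT, the core that the Runt domain reads. The short patterns GGAA and CANNTG, which match often, are left in lower case. The first is the 300 bp element in intron 1 of UBASH3B at chr11:122588218-122588517, which holds both summits at 48 h. The AML1-ETO summit was base 30 and the ETO2-GLIS2 summit base 270. A C/EBP pattern (TTGCNNAA) lay at bases 100 to 107 and a Runt pattern at bases 166 to 171, between the summits. A further Runt match, at -51 bp from the AML1-ETO summit at 48 h, falls outside the printed stretch.
UBASH3B intron 1: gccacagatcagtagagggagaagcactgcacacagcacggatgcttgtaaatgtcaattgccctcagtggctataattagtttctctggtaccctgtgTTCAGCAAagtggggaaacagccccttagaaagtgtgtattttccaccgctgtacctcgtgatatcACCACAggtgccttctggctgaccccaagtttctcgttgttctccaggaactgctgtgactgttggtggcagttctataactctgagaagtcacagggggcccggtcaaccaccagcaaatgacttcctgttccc

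At RASSF2, 61 bp centred on each 48 h summit in intron 2 are shown, at chr20:4792708-4792768 for AML1-ETO and chr20:4792673-4792733 for ETO2-GLIS2. Both windows hold the same Runt match, at bases 16 to 21 of the first and bases 51 to 56 of the second.
RASSF2 AML1-ETO: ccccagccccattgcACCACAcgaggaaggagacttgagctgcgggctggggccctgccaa
RASSF2 ETO2-GLIS2: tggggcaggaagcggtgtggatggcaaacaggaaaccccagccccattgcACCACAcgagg

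Windows of the same length at the strongest 48 h peaks of LAT2 (chr7:73631987-73632047 and chr7:73632122-73632182), CD48 (chr1:160674291-160674351 and chr1:160681663-160681723), JUP (chr17:39941757-39941817 and chr17:39960096-39960156) and TRH (chr3:129709314-129709374) held no match to these 6 patterns.
LAT2 AML1-ETO: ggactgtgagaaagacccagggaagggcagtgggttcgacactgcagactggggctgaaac
LAT2 ETO2-GLIS2: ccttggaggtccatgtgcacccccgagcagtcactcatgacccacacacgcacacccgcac
CD48 AML1-ETO: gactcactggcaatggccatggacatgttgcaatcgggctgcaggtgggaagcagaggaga
CD48 ETO2-GLIS2: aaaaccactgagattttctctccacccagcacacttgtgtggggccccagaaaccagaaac
JUP AML1-ETO: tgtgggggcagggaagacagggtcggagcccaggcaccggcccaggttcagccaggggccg
JUP ETO2-GLIS2: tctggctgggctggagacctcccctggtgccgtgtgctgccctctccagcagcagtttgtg
TRH AML1-ETO: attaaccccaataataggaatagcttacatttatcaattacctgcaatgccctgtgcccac
The summit of the ETO2-GLIS2 window listed under JUP was nearer to the start of P3H4 than to that of JUP. The windows at POU4F1 and PLCG1 overlap annotated untranslated sequence and are not shown. They are rich in G and C, with 83.6% at the POU4F1 summit and 80.3% at the AML1-ETO summit of PLCG1. Across the printed windows the G and C content was lowest at TRH, with 39.3%, and highest at the AML1-ETO summit of JUP, with 73.8%.

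AML1-ETO was placed at 7 of the 9 genes in the 12 h list and at 8 in the 48 h list, where 77.6% and 80.3% of all protein-coding genes had one. ETO2-GLIS2 peaks lay at 7 genes at 12 h and at 6 at 48 h, where 66.4% and 66.0% of all protein-coding genes had one. Most genes of the genome thus had a peak by this measure too.

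A peak with its summit within 1 kb of a start site of the gene was present at 7 genes for AML1-ETO at 12 h (54.0% of all protein-coding genes) and at 6 at 48 h (59.8%). For ETO2-GLIS2 there were 5 such genes at 12 h (42.8% of all) and 6 at 48 h (45.7%). CD48 left the AML1-ETO count at 48 h although its start site was still covered. Its start lay inside a single 11841 bp peak whose summit was 7.3 kb away.

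UBASH3B, LAT2, RASSF2 and CD48 held 118 of the 140 AML1-ETO peaks at 48 h and 28 of the 33 ETO2-GLIS2 peaks. This group of 4 was formed after the values were seen. At 12 h they held 85 of 96 and 31 of 36. The other 5 genes together held few peaks, and CAV1 had none in any list.

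**Figure D1:**
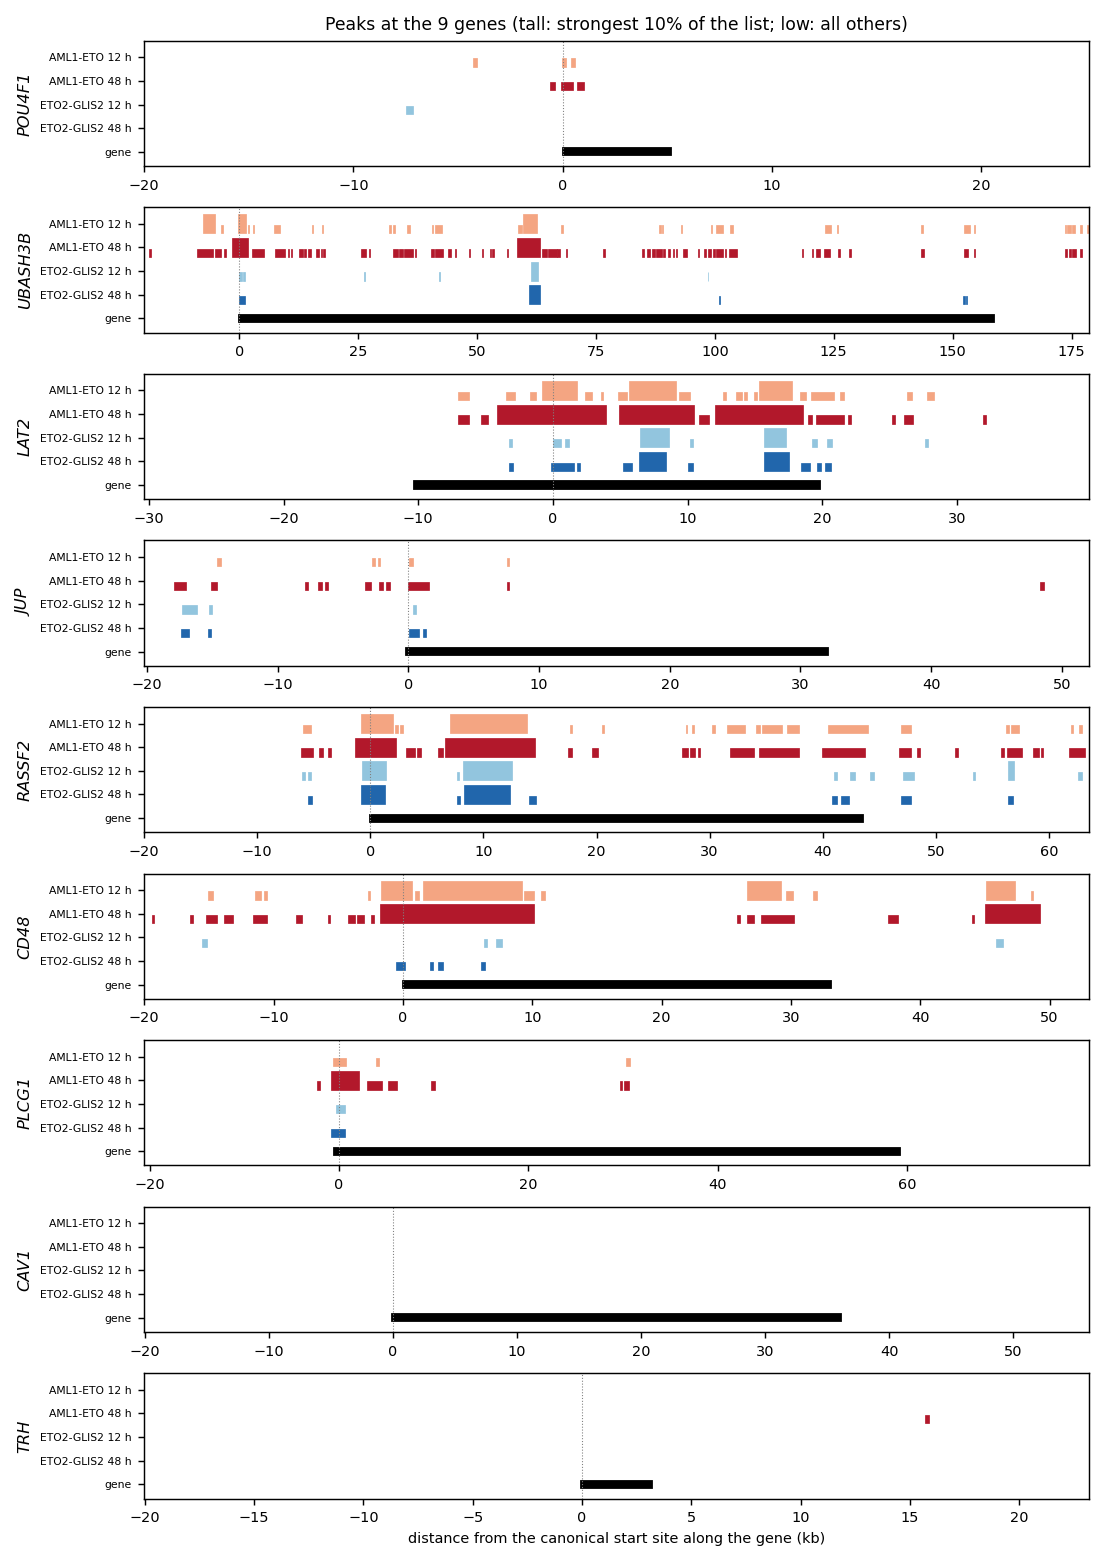
Peaks of the 4 lists along the 9 genes, 1 panel a gene, with the distance in kb from the canonical start site on the x axis and the gene as a black bar; tall boxes are peaks in the strongest 10% of their list and low boxes are all others. UBASH3B, LAT2, RASSF2 and CD48 carry wide AML1-ETO blocks, and the panel of CAV1 is empty.

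The share of the window (the gene with both flanks) lying under peaks gave these 4 genes another order than the peak number. For AML1-ETO at 48 h it was 37.6% at RASSF2, 37.2% at LAT2, 35.0% at CD48 and 26.3% at UBASH3B, where the median of all protein-coding genes was 4.45%. Only 5.45%, 5.62%, 6.53% and 11.1% of protein-coding genes, respectively, were covered as much. JUP, with 7.43%, and PLCG1, with 6.91%, were above the median, while POU4F1, with 2.37%, and TRH, with 1.93%, were below it. Most of the TRH value is the edge of a 1172 bp peak whose summit lies outside the window. For ETO2-GLIS2 at 48 h, LAT2 (12.1%) and RASSF2 (11.8%) stood apart from the other members, which had 2.65% or less.

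Ranks place each peak within its own list by −log10 q, with 1 as the strongest, and are given also as a percent of the list length. Among peaks of the 9 genes, 12 of 96 (12.5%, interval 6.63% to 20.8%) for AML1-ETO at 12 h and 10 of 140 (7.14%, interval 3.48% to 12.7%) at 48 h were in the strongest 10% of their list. For ETO2-GLIS2 they were 6 of 36 (16.7%, interval 6.37% to 32.8%) and 5 of 33 (15.2%, interval 5.11% to 31.9%). Each interval holds 10%, the share of any list by construction. The median rank was 45.1% for AML1-ETO and 41.8% for ETO2-GLIS2 at 48 h, near the middle of the lists.

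UBASH3B (chr11:122526430-122685181, plus strand) encodes a phosphatase-like regulator that dampens signalling from tyrosine kinases. It is the longest of the 9 genes, with 158.8 kb, and held the most peaks of AML1-ETO, with 32 at 12 h and 65 at 48 h. ETO2-GLIS2 had 6 and 5 there.

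The strongest UBASH3B peak in every list was the intron 1 element whose sequence is given above, 61.8 kb past the start for AML1-ETO and 62.1 kb for ETO2-GLIS2. Its AML1-ETO rank was 2427 (3.43%) at 12 h and 2733 (2.58%) at 48 h. The ETO2-GLIS2 ranks were 628 (2.22%) and 701 (2.33%). For ETO2-GLIS2 at 48 h, 5.42% of protein-coding genes had a peak as strong, against 18.9% for AML1-ETO. The AML1-ETO summit moved by 2 bp between times and the ETO2-GLIS2 summit by 3 bp, while the proteins' summits were 245 bp apart at 12 h and 240 bp at 48 h. The offset between proteins was thus far larger than the shift of either summit between libraries.

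The UBASH3B start site gave a different order. There AML1-ETO ranked 5948 (8.40%) at 12 h and 2887 (2.73%) at 48 h, with widths of 1635 bp and 3403 bp. ETO2-GLIS2 ranked 9476 (33.5%) and 10615 (35.3%), so the start site was among the strong AML1-ETO peaks and in the middle of the ETO2-GLIS2 list. ETO2-GLIS2 at 12 h had a second peak there, rank 21038, and both of its 12 h peaks lay under the 1425 bp peak of 48 h. Of the 65 AML1-ETO peaks at 48 h, 24 overlapped a peak of 12 h and 41 did not. In the whole AML1-ETO list at 48 h, 36.8% overlapped one. Near start sites of shorter UBASH3B transcripts, AML1-ETO had 2 further peaks at 12 h, 123.6 kb and 125.9 kb past the canonical start (ranks 19823 and 35929). At 48 h it had 6, of which the strongest lay 123.6 kb past the start in intron 3 (rank 17721, 16.8%) and the weakest 120.4 kb past it (rank 104362). At UBASH3B, ETO2-GLIS2 summit windows of 200 bp with a Runt match were 0 of 6 at 12 h and 0 of 5 at 48 h. The intervals, 0% to 45.9% and 0% to 52.2%, hold the whole-list shares of 23.2% and 21.9%. For AML1-ETO at 48 h it was 17 of 65 (26.2%, interval 16.0% to 38.5%), where the whole list had 24.9%.

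LAT2 (chr7:73613982-73644164, plus strand) encodes a transmembrane adaptor, also called NTAL, that couples immune receptors to downstream signalling in B, mast and myeloid cells. AML1-ETO had 19 peaks at 12 h and 12 at 48 h, and ETO2-GLIS2 had 9 and 10. The number of AML1-ETO peaks went down while the covered share went up from 24.3% to 37.2%, and a single 6574 bp peak at 48 h lay over 6 peaks of 12 h.

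The LAT2 element in intron 4, 7.7 kb past the canonical start for AML1-ETO and 7.8 kb for ETO2-GLIS2, was the strongest ETO2-GLIS2 peak of all 9 genes. Its ETO2-GLIS2 ranks were 364 (1.29%) and 551 (1.83%), and its AML1-ETO ranks 1645 (2.32%) and 1176 (1.11%). The proteins' summits were 114 bp apart at 12 h and 135 bp at 48 h, and the shift with time was 19 bp for AML1-ETO and 2 bp for ETO2-GLIS2. A further element in intron 13, 16.8 kb past the start, had the AML1-ETO ranks 903 (1.27%) and 2168 (2.05%) and the ETO2-GLIS2 ranks 1445 (5.10%) and 2165 (7.19%). There the summits were 16 bp and 20 bp apart, closer than the 36 bp by which ETO2-GLIS2 moved between times. At the canonical start AML1-ETO ranked 6666 (9.41%) at 12 h and 3751 (3.55%) at 48 h, in a peak of 8123 bp at 48 h. ETO2-GLIS2 reached 18565 (65.5%) and 11293 (37.5%) there, with a second peak of rank 23364 at 12 h. LAT2 also had an AML1-ETO peak 1.3 kb before the canonical start at 12 h (rank 41506, 463 bp), which is near the start of another annotated transcript. Around an internal start site, AML1-ETO at 12 h ranked 30827, 9.9 kb past the canonical start, and ETO2-GLIS2 ranked 17585 at 12 h and 14820 at 48 h, 10.3 kb and 10.2 kb past it.

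PLCG1 (chr20:39765600-39825441, plus strand) encodes phospholipase C gamma 1, which makes the second messengers that release calcium and activate protein kinase C. AML1-ETO had 3 peaks at 12 h and 7 at 48 h, and ETO2-GLIS2 had 1 at each time, at the start site. The AML1-ETO peak at the start ranked 13293 (18.8%) at 12 h and 9295 (8.79%) at 48 h, and widened from 1412 bp to 2956 bp. The strongest AML1-ETO peak at 12 h was another one, rank 11766 (16.6%) in intron 1, 4.0 kb past the start. Near an internal start site, about 30.5 kb in, AML1-ETO had a peak of rank 38607 at 12 h and one of rank 28537 at 48 h, when a weaker one (rank 99098) lay 29.9 kb in. At the start ETO2-GLIS2 ranked 17222 (60.8%) and 12685 (42.1%). PLCG1 sat near the middle of the genome, since 47.1% of protein-coding genes had an AML1-ETO peak at least as strong at 48 h and 51.2% an ETO2-GLIS2 peak.

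RASSF2 (chr20:4760669-4804254, minus strand) encodes a Ras-association domain protein with tumour suppressor properties. AML1-ETO had 20 peaks there at 12 h and 24 at 48 h, while ETO2-GLIS2 had 12 and 9. RASSF2 had strong peaks of both proteins at both times, at elements in introns 1 and 2.

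The RASSF2 intron 1 element, 0.9 kb past the start, was the strongest AML1-ETO peak of the 9 genes at 12 h, with rank 538 (0.760%), and ranked 1540 (1.46%) at 48 h. For ETO2-GLIS2 it ranked 2376 (8.39%) and 1252 (4.16%). The 4 summits lay 866 bp to 890 bp past the start, and the proteins were 24 bp apart at 12 h and 6 bp at 48 h. In intron 2, 11.5 kb past the start, AML1-ETO ranked 781 (1.10%) and 1170 (1.11%), the latter the strongest peak of the 9 genes in that list. ETO2-GLIS2 ranked 482 (1.70%) and 611 (2.03%) there. The summits of the intron 2 element were 15 bp apart at 12 h and 35 bp at 48 h. At 48 h they lay on either side of the Runt match printed above, and at 12 h on the same side of it. The peaks of the element were wide, 7946 bp for AML1-ETO and 3991 bp for ETO2-GLIS2 at 48 h. At internal start sites of RASSF2 all peaks were weaker. They were 2 of AML1-ETO at 12 h (ranks 23412 and 51201) and 3 at 48 h (ranks from 47991 to 89427), 27.8 kb to 29.0 kb past the start, and 1 of ETO2-GLIS2 at each time (ranks 13269 and 23368). An ETO2-GLIS2 peak of 527 bp past the end of the gene, 56.7 kb from the start, ranked 1367 (4.83%) at 12 h. At 48 h it ranked 4278 (14.2%) with 470 bp. Of the RASSF2 peaks, 7 of 24 AML1-ETO and 6 of 9 ETO2-GLIS2 summit windows at 48 h held a Runt match. The whole lists had 24.9% and 21.9%. RASSF2 is 1 of the 9 genes, and UBASH3B had 0 of 5 for ETO2-GLIS2 at 48 h. Over the 9 genes the ETO2-GLIS2 share was 30.3% (interval 15.6% to 48.7%), which holds the share of the whole list.

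CD48 (chr1:160648536-160681621, minus strand) encodes a GPI-anchored surface protein of blood cells that binds CD244 on natural killer cells. In the CD48 window only AML1-ETO had peaks in the strongest 10% of its lists, 4 in the 12 h list and 2 in the 48 h list. Among these was a peak 46.1 kb past the start, rank 5258 at 12 h and 8293 at 48 h. Its summit was nearer to the start of SLAMF1 than to that of CD48, so it cannot be given to CD48 by position. AML1-ETO had 14 peaks at 12 h and 17 at 48 h, covering 25.4% and 35.0% of the window, and ETO2-GLIS2 had 4 at each time, covering 2.07% and 2.08%.

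The strongest AML1-ETO peak of CD48 lay in intron 1, 7.3 kb past the start, and ranked 1077 (1.52%) at 12 h and 3377 (3.19%) at 48 h. Its width went from 7665 bp to 11841 bp, over 4 peaks of 12 h. At 12 h a separate AML1-ETO peak of 2389 bp lay at the start (rank 5863, 8.28%). The strongest ETO2-GLIS2 peak ranked 13584 (48.0%) at 12 h, 7.5 kb past the start, and 11186 (37.2%) at 48 h, 0.1 kb before it.

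JUP (chr17:39910856-39943183, minus strand) encodes plakoglobin, the catenin of desmosomes and adherens junctions. AML1-ETO had 5 peaks at 12 h and 11 at 48 h, none in the strongest 10%. The strongest was at the start at 12 h (rank 28239, 39.9%, 341 bp) and 1.2 kb into intron 1 at 48 h (rank 24731, 23.4%, 1629 bp). ETO2-GLIS2 also had a start-site peak, rank 23954 (84.6%) at 12 h and 11504 (38.2%) at 48 h, when a second one stood 1.2 kb past the start (rank 24856).

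The strongest ETO2-GLIS2 peak in the JUP window lay 17.2 kb before the start, rank 4217 (14.9%) at 12 h and 4255 (14.1%) at 48 h. Its summit was nearer to the start of P3H4 than to that of JUP, so it cannot be given to JUP by position. AML1-ETO had no peak under it at 12 h, and one of rank 47458 (44.9%) at 48 h. Without it, the best ETO2-GLIS2 peak of JUP at 48 h was the one at the start (38.2%), behind the AML1-ETO peak (23.4%). A peak at least as strong as the best AML1-ETO one was present at 69.9% of protein-coding genes.

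CAV1 (chr7:116165048-116201233, plus strand) encodes caveolin 1, the coat protein of caveolae. No peak of any list lay in its 76.2 kb window. The nearest AML1-ETO peaks were 282.0 kb past its end at 12 h and 281.6 kb at 48 h. The nearest ETO2-GLIS2 peaks were 191.2 kb and 301.3 kb past it. All were nearest to the start of MET or CAPZA2.

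POU4F1 (chr13:79172497-79177687, minus strand) encodes a POU-domain factor of sensory neurons. AML1-ETO had 3 peaks at each time and ETO2-GLIS2 had 1 at 12 h and 0 at 48 h. The AML1-ETO peak in exon 1, 0.1 kb past the start, ranked 22098 (31.2%) at 12 h with 175 bp and 26449 (25.0%) at 48 h with 558 bp. A second peak lay 0.6 kb past the start at 12 h (rank 39748) and was joined to the first at 48 h. At 48 h further peaks stood 0.9 kb past the start (rank 59681) and 0.4 kb before it (rank 100371). The ETO2-GLIS2 peak at 12 h, 7.2 kb before the start, ranked 26632 (94.0%). At 48 h the nearest one was 55.4 kb before the start, beside OBI1. None of the 3 AML1-ETO summit windows at either time at POU4F1 held a Runt match, where the whole lists had 26.7% and 24.9%.

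TRH (chr3:129693531-129696778, plus strand) encodes the precursor of thyrotropin-releasing hormone. Its only peak by the rule was one of AML1-ETO at 48 h, 202 bp wide, 15.8 kb past the start, with rank 94031 (88.9%). The 20 kb limit mattered here. Just outside it, AML1-ETO at 48 h had a 1172 bp peak of rank 24243 (22.9%) with its summit 20.2 kb before the start, and ETO2-GLIS2 at 12 h had one of rank 18370 (64.9%) at 20.2 kb. AML1-ETO at 12 h (rank 9838, 13.9%) and ETO2-GLIS2 at 48 h (rank 6898, 22.9%) had their nearest peaks 23.9 kb before it. Just inside the limit elsewhere was an AML1-ETO peak 19.8 kb past the end of UBASH3B at 12 h (rank 49621). RASSF2 had peaks 19.3 kb past its end for AML1-ETO at 12 h (rank 20102) and 48 h (rank 16318) and for ETO2-GLIS2 at 12 h (rank 12346), and CD48 had an AML1-ETO peak 19.3 kb before its start at 48 h (rank 71297).

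How far the proteins overlapped at the 9 genes depended on which list was counted. At 48 h, 33 of 33 ETO2-GLIS2 peaks (100%, interval 89.4% to 100%) shared 1 bp or more with AML1-ETO, where 83.4% of all ETO2-GLIS2 peaks did. At 12 h it was 28 of 36 (77.8%, interval 60.8% to 89.9%), where 74.5% of all did. In the other direction 22 of 96 AML1-ETO peaks at 12 h (22.9%, interval 15.0% to 32.6%, all peaks 26.2%) and 20 of 140 at 48 h (14.3%, interval 8.95% to 21.2%, all peaks 17.8%) overlapped one of ETO2-GLIS2. Of these 4 shares, 3 had the genome-wide share inside their interval, and only ETO2-GLIS2 at 48 h lay above it. At 48 h AML1-ETO peaks covered 26.3% to 37.6% of the 4 windows that held 28 of these 33 peaks, and the part of peak width in the overlap was not tested. With summits within 200 bp required, 13 of 33 (39.4%, interval 22.9% to 57.9%) ETO2-GLIS2 peaks were shared, against 39.0% of the whole list. The genome-wide share was also inside the interval with −log10 q of at least 5 (24 of 26, 92.3%, against 92.1%) and with 50% of the peak covered (90.9%, interval 75.7% to 98.1%, against 79.2%). With the same number of strongest peaks in each list it stayed below (93.3%, interval 77.9% to 99.2%, against 74.5%).

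Overlap followed rank. At 48 h, 9 of 10 AML1-ETO peaks in the strongest 10% of the list overlapped ETO2-GLIS2, 9 of 62 in ranks from 10% to 50%, and 2 of 68 in the weaker 50%. The whole list had 84.1%, 19.8% and 2.89% in these ranges, so the 9 genes followed it. The exception among the strongest 10 was the CD48 peak 46.1 kb past the start, in the flank towards SLAMF1.

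Between the times, 81 of 96 AML1-ETO peaks at 12 h (84.4%, interval 75.5% to 91.0%) overlapped an AML1-ETO peak at 48 h, where 73.9% of the whole list did. In the stronger 50% of the list it was 47 of 50 (94.0%, interval 83.5% to 98.7%) against 92.3%, and in the weaker 50% 34 of 46 (73.9%, interval 58.9% to 85.7%) against 55.6%. The difference from the whole list was within the interval with −log10 q of at least 5 (89.4% against 87.6%), equal list lengths (88.6% against 85.8%), 50% of the peak covered (72.9% against 66.9%) and summits within 200 bp (45.8% against 39.3%). Of the AML1-ETO peaks at 48 h, 57 of 140 (40.7%, interval 32.5% to 49.3%) overlapped one of 12 h, against 36.8%. For ETO2-GLIS2 the shares were 22 of 36 (61.1%, interval 43.5% to 76.9%) at 12 h against 60.6%, and 20 of 33 (60.6%, interval 42.1% to 77.1%) at 48 h against 54.6%. Peaks covered more of the windows at 48 h, 149.6 kb against 84.9 kb for AML1-ETO and 28.0 kb against 23.5 kb for ETO2-GLIS2. The AML1-ETO list also grew as a whole, and read numbers were not analysed here.

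Most peaks at the 9 genes lay away from start sites, but locations over the whole lists were not counted for comparison. At 48 h, 19 of 140 AML1-ETO summits (13.6%, interval 8.37% to 20.4%) and 9 of 33 ETO2-GLIS2 summits (27.3%, interval 13.3% to 45.5%) were within 1 kb of a start site of the gene, and 67 and 13, respectively, were in introns. The median width at the 9 genes was 475.5 bp for AML1-ETO and 470 bp for ETO2-GLIS2 at 48 h, where the whole lists had 415 bp and 399 bp.

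Runt matches in 200 bp around the summit, on either strand, were counted for all peaks of the 9 genes. AML1-ETO windows held one in 24 of 96 (25.0%, interval 16.7% to 34.9%) at 12 h and 38 of 140 (27.1%, interval 19.98% to 35.3%) at 48 h. The whole lists had 26.7% and 24.9%. ETO2-GLIS2 windows held one in 11 of 36 (30.6%, interval 16.3% to 48.1%) and 10 of 33 (30.3%, interval 15.6% to 48.7%), where the whole lists had 23.2% and 21.9%. Each interval held the share of its whole list, and those of ETO2-GLIS2 were wide. With −log10 q of at least 5, 24 of 62 AML1-ETO windows at 48 h (38.7%) held a match, against 30.5% of that list. By gene, the 10 ETO2-GLIS2 windows with a match at 48 h were 6 at RASSF2, 3 at LAT2 and 1 at CD48.

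Of the other patterns, the GLIS core TGGGGGG was in 5 of 33 ETO2-GLIS2 windows at 48 h (15.2%, interval 5.11% to 31.9%, whole list 7.89%) and in 3 of 140 AML1-ETO windows (2.14%, whole list 3.83%). The E-box CAGCTG was in 30 of 140 AML1-ETO windows at 48 h (21.4%, interval 14.9% to 29.2%), above the 13.7% of the whole list, but in 10 of 96 at 12 h (10.4%, interval 5.11% to 18.3%, whole list 14.0%). At 48 h, 19 of the 30 were at UBASH3B, and the other genes had 11 of 75 (14.7%, interval 7.56% to 24.7%). The excess was the only one among 8 patterns in that list whose interval left out the genome-wide share.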

How the data were processed

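ChIP-seq peak lists of 4 libraries from U937 cells were used, 1 for each fusion protein and time. Alignment to hg19 (Bowtie2) and peak calling (MACS2) were done by the authors. The submitters' processing notes name Bowtie2 2.2.9, SAMtools 1.7, MACS2 2.1.1.20160309 and deepTools. MACS2 settings and removal of duplicates are not given in the sources used here. The deposited lists hold, for each peak, a score, a fold enrichment (a linear ratio of signal over local background), −log10 p and −log10 q. These values grow with depth and were used only to rank peaks within a list. Ties were broken by fold and then position. The lists hold no read numbers, so depth is unknown from them. The authors' sequencing statistics list more reads for the AML1-ETO ChIP library than for that of ETO2-GLIS2 at each time. The treatment text of the 12 h samples speaks of 48 h, whereas their titles and characteristics give 12 h, which was used.

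Only peaks of chromosomes 1 to 22, X and Y entered. Genes came from GENCODE release 44 lifted to GRCh37, and 0 peaks lay past a chromosome end. Distances are from the canonical transcript's start, and start-site counts use any annotated transcript. For each gene the strongest peak in each list and the peaks within 1 kb of a start site are described, and other peaks by count. Overlap was at least 1 bp. Motifs were short consensus patterns searched on both strands. They were Runt (TGTGGT or TGCGGT), GLIS core (TGGGGGG), ETS (CCGGAAGT), ETS core (GGAA, also within the longer ETS pattern), AP-1 (TGACTCA or TGAGTCA), C/EBP (TTGCNNAA) and the E-boxes CAGCTG and, including it, CANNTG. Scripts ran in Python 3.11.15 with numpy 2.4.6, scipy 1.17.1 and matplotlib 3.10.9. Overlap was tested on 3000 simulated peaks against bedtools 2.31.1, with 0 differences, and 0 of 1600 planted motifs were missed. The genes, gene lists and patterns were chosen with earlier results of these data known. Leaving out UBASH3B was an alternative added after seeing the data.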

Additional observations from a re-analysis of the deposited data

Results flagged for a closer look

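Between 12 h and 48 h several counts at the 9 genes moved in opposite directions for the proteins. There was 1 library for each protein and time, so none of these differences was tested. The authors' sequencing statistics list more reads for the AML1-ETO ChIP library at 48 h than at 12 h. For the ETO2-GLIS2 ChIP library they list fewer reads at 48 h than at 12 h. Whether read numbers bear on these counts was not tested. Over the 9 genes the number of peaks rose by 44 for AML1-ETO (96 to 140) and went from 36 to 33 for ETO2-GLIS2. The whole lists went from 70833 to 105769 peaks for AML1-ETO and from 28325 to 30096 for ETO2-GLIS2. At UBASH3B, AML1-ETO had 33 more peaks at 48 h (32 to 65), and ETO2-GLIS2 went from 6 to 5. At LAT2, AML1-ETO changed by -7 peaks (19 to 12), with joining of neighbouring peaks as described above, and ETO2-GLIS2 by 1 (9 to 10). At RASSF2, AML1-ETO changed by 4 peaks (20 to 24) and ETO2-GLIS2 by -3 (12 to 9). The covered share of the RASSF2 window changed by 10.9 percentage points for AML1-ETO (26.7% to 37.6%) and by -0.435 for ETO2-GLIS2 (12.3% to 11.8%). At POU4F1 it changed by 1.16 points for AML1-ETO (1.21% to 2.37%) and went from 0.748% to 0% for ETO2-GLIS2. The median covered share over all protein-coding genes went from 2.26% to 4.45% for AML1-ETO and from 0.678% to 0.757% for ETO2-GLIS2.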

How the results depend on the processing

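Of 65 alternatives for 11 values, 14 moved a count by over 1.5 times or a share out of its interval. AML1-ETO peaks at 48 h numbered 140, 62 with −log10 q of at least 5, 91 in gene bodies only, 40 with the 28325 strongest peaks of each list and 75 without UBASH3B. Their share overlapping ETO2-GLIS2 was 14.3% as reported and 21.3% without UBASH3B. It was 25.8% with −log10 q of at least 5 (whole list 29.8%), 42.5% with equal list lengths (52.8%), 4.29% with 50% of the peak covered (5.23%) and 9.29% with summits within 200 bp (11.1%). The share of ETO2-GLIS2 peaks overlapping AML1-ETO fell from 100% to 39.4% with summits within 200 bp (39.0%). The share of 12 h peaks found at 48 h with summits within 200 bp was 45.8% for AML1-ETO (39.3%) and 38.9% for ETO2-GLIS2 (46.8%), and with 50% covered 72.9% for AML1-ETO (66.9%). Runt matches at AML1-ETO 48 h summits were 38.7% with −log10 q of at least 5 (30.5%) and 16.4% in 100 bp (14.5%). Genes with an AML1-ETO start-site peak at 48 h went from 6 to 4 with the start of the gene record only. No paired analysis was possible because each protein and time had 1 ChIP library. Read depth was not analysed here.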

Other observations

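Relatives of the 9 genes and proteins that act with them were counted in the same way. Of 19 relatives, 14 and 15 had an AML1-ETO peak within 20 kb at 12 h and 48 h, and 13 and 12 an ETO2-GLIS2 peak. The shares over all protein-coding genes were 77.6%, 80.3%, 66.4% and 66.0%, which stand beside all counts here. POU4F2 and POU4F3, neuronal POU factors, and CAV2, the partner caveolin of CAV1, had none in any of the 4 lists. Windows of relatives can share peaks with those of the 9 genes. The strongest AML1-ETO peak of the relative SLAMF1, at 7.42% of the list at 12 h and 7.84% at 48 h, was also counted for CD48. Of 15 genes for interacting proteins, among them the kinases SYK and LYN and the adaptors GRB2 and GAB2, 14 and 14 had an AML1-ETO peak and 14 and 13 an ETO2-GLIS2 peak. DSG2, a desmosomal cadherin, had none in any list, and CTNNA1 had none of ETO2-GLIS2 at 48 h.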
